A study of Mus musculus with 273 samples.

Results

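The microRNA hairpins of the mouse miR-30 family, together with miR-384, were followed in small-RNA libraries of liver and brain. These 7 hairpins, entered in the count tables as mmu-mir-30a, mmu-mir-30b, mmu-mir-30c-1, mmu-mir-30c-2, mmu-mir-30d, mmu-mir-30e and mmu-mir-384 and written here as miR-30a and so on, were chosen by name out of the 1226 hairpins listed in each of the 4 tables. The tissues were liver (77 libraries), hypothalamus (72), right striatum (46) and right cortex (78), all from wild-type male C57BL/6J mice, an inbred laboratory strain, aged 26 weeks. Tissue was taken every 3 h over 36 h, and the libraries fell into 31 groups of tissue and Zeitgeber time (ZT, the sampling time folded to 24 h). A group held 6 to 12 libraries in liver, 5 to 12 in hypothalamus, 2 to 9 in striatum, which had none at ZT15, and 6 to 12 in cortex. No animal carried a mutation or a treatment, and the labels used here do not state the lighting schedule.

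MicroRNAs are short RNAs cut from a hairpin precursor, and they lower the stability and translation of messenger RNAs that pair with their seed, a short stretch near the 5′ end. The miR-30 family is abundant in many mammalian tissues and is known for repressing genes of epithelial-to-mesenchymal transition, fibrosis, autophagy and lipoprotein secretion. miR-384 lies outside the miR-30 loci, and its 5p strand has been studied in the rat hippocampus, where it bears on long-term potentiation, the lasting strengthening of synapses.

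The RefSeq annotation of GRCm38.p6 gave mature sequences for 5 of the 7 members. The 5p strands are shown because they carry the seed that the members share; bases 2 to 8, counted from the 5′ end, are in capitals. The 3p strands of the miR-30c copies follow, because those copies have 1 identical 5p strand and can be told apart there.
mmu-miR-30a-5p: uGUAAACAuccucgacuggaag
mmu-miR-30c-5p: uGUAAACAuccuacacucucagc
mmu-miR-30e-5p: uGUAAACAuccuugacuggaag
mmu-miR-384-5p: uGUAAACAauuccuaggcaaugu
mmu-miR-30c-1-3p: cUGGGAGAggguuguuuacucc
mmu-miR-30c-2-3p: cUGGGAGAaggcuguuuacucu

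The seed GUAAACA was found in 5 of the 1738 mature entries of that table, which are the 5p strands of miR-30a, miR-30c-1, miR-30c-2, miR-30e and miR-384. miR-30b and miR-30d have no mature entry there, so their seeds could not be searched. From miR-30a-5p, miR-30e-5p differed at 1 of 22 bases (C13U, position counted from the 5′ end), miR-30c-5p at 5 and miR-384-5p at 10, all outside the seed. The 3p strands of miR-30c-1 and miR-30c-2 differed at 3 bases. The deposited count of a hairpin does not separate its arms, and how reads shared by the miR-30c copies were counted is not given in the sources used here. Their separate values are therefore uncertain, and so is their sum if shared reads were lost.

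The miR-30 hairpins lie in pairs. miR-30a (chr1:23272269-23272339, plus strand) and miR-30c-2 (chr1:23291701-23291784, plus strand) are 19361 bases apart; miR-30c-2 overlaps an exon of the long non-coding RNA Gm27028, and no annotated gene spans miR-30a. miR-30c-1 (chr4:120769534-120769622) and miR-30e (chr4:120772606-120772697) are 2983 bases apart on the minus strand, both in introns of Nfyc, which encodes a subunit of the transcription factor NF-Y and runs on the same strand. miR-30b (chr15:68337415-68337510) and miR-30d (chr15:68341208-68341289) are 3697 bases apart on the minus strand, within exons of the non-coding transcripts Gm26621 and Gm20732. miR-384 stands alone at chrX:105344282-105344369, minus strand, with no annotated host gene. miR-30f, annotated over the same 92 bases as miR-30e on the opposite strand, had 1 count in each of 5 liver libraries and 0 in every brain library. All coordinates are of GRCm38.p6.

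Total counts per library were 1988671 to 5236177 in liver, 1079380 to 3954710 in hypothalamus, 26341 to 4022070 in striatum and 1164449 to 4980887 in cortex. In all, 20 libraries stood apart from their tissue's median profile, among them Liver ZT9 replicate 4, Striatum ZT21 replicate 3 and Striatum ZT9 replicate 6, the last with the lowest total. The summed level of 4 hepatocyte microRNAs had a median of 409406 CPM (counts scaled to 1 common total) in liver, against 12490 in hypothalamus, 8240 in striatum and 5929 in cortex. The summed level of 8 neuronal microRNAs had a median of 8.79 CPM in liver, against 3140 in hypothalamus, 8706 in striatum and 21368 in cortex. The labels carry an animal code shared across tissues, and library numbers that fall into 14 runs; liver libraries lay in runs 10 to 14 and brain libraries in runs 1 to 10, with 1 hypothalamus library in run 10, so that liver against brain and library run cannot be told apart.

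Together the 7 hairpins took 10.01% ± 0.780 of all counts in liver, 8.34% ± 0.896 in hypothalamus, 11.64% ± 2.44 in striatum and 13.72% ± 1.39 in cortex (SD; n = 77, 72, 46 and 78). Almost all of this came from miR-30a, miR-30d and miR-30e. Their order was the same nearly everywhere: miR-30a was above miR-30d, miR-30d above miR-30e and miR-30e above miR-30b in 71 of 77 liver, 72 of 72 hypothalamus, 46 of 46 striatum and 78 of 78 cortex libraries. A read is as long as the mature strand whatever the hairpin, so these shares were not divided by hairpin length, which runs from 71 to 96 bases.

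miR-30a, studied in human cells as a repressor of the autophagy gene BECN1, was the most abundant of the family in each library. It ranged over 63999 to 120949 CPM in liver (median 72618), 31477 to 51626 in hypothalamus (median 42530), 43661 to 118521 in striatum (median 63775) and 61966 to 105692 in cortex (median 78808). The liver and hypothalamus libraries did not overlap, nor did the hypothalamus and cortex libraries, while liver, striatum and cortex did; with TMM scaling every liver library was above every brain library. By mean CPM, miR-30a ranked 4 of 853 detected hairpins in liver, 4 of 937 in hypothalamus, 3 of 915 in striatum and 3 of 939 in cortex. Its mean was 73571 ± 6822, 41627 ± 4853, 66135 ± 15281 and 79658 ± 8269 CPM in that tissue order (SD). The liver maximum was Liver ZT9 replicate 4 and the striatum maximum Striatum ZT21 replicate 3; without them and Striatum ZT9 replicate 6, the SD was 4103 in liver and 13381 in striatum.

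miR-30d, studied with miR-30b in human melanoma, had another profile. Its range was 9623 to 15754 CPM in liver (median 13132), 18759 to 29558 in hypothalamus (median 22588), 21506 to 60039 in striatum (median 26768) and 24772 to 41479 in cortex (median 31506). On library totals every liver library lay below every brain library, whereas the brain regions overlapped one another. With TMM-scaled CPM the order turned, with every liver library above every hypothalamus library and overlap with striatum and cortex. miR-30d ranked 12 in liver and 7 in each brain region.

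miR-30e shares its intron cluster with miR-30c-1 and its 5p sequence, but for 1 base, with miR-30a. It ranged over 8870 to 15655 CPM in liver (median 12078), 9586 to 20760 in hypothalamus (median 13088), 11285 to 27388 in striatum (median 15445) and 13600 to 30161 in cortex (median 18675). All 4 tissues overlapped on library totals, with the lowest median in liver and the highest in cortex; with TMM scaling every liver library was above every hypothalamus library.

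miR-30b ran from 889.2 to 1893 CPM in liver (median 1108), 1318 to 3959 in hypothalamus (median 2919), 1613 to 11390 in striatum (median 3543) and 2695 to 6521 in cortex (median 4589). On library totals liver and cortex did not overlap, but they did with TMM scaling; liver overlapped with hypothalamus and striatum, and the brain regions overlapped. The striatum maximum was again Striatum ZT21 replicate 3, and without the 3 libraries named above the highest striatum value was 6222 CPM.

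The miR-30c copies had far lower counts, and reads shared by them may have been split or lost. miR-30c is known in mouse liver as a repressor of Mttp, the microsomal triglyceride transfer protein needed to assemble lipoproteins. miR-30c-2 ranged over 126.9 to 246 CPM in liver (median 207.5), 60.06 to 126.5 in hypothalamus (median 93.1), 103.3 to 337.5 in striatum (median 158.4) and 139.7 to 228.8 in cortex (median 189.8). It was lowest in hypothalamus, where no library reached the level of any liver or cortex library. With TMM scaling every liver library was above every brain library.

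miR-30c-1 ranged over 11.81 to 50.28 CPM in liver (median 38.8), 47.25 to 91.91 in hypothalamus (median 64.85), 56.56 to 113.9 in striatum (median 74.77) and 58.51 to 100.8 in cortex (median 79.98). On library totals liver was the lowest tissue for this copy, without overlap with striatum or cortex, and with TMM scaling it overlapped with each brain region. miR-30c-2 was above miR-30c-1 in 77 of 77 liver, 71 of 72 hypothalamus, 46 of 46 striatum and 78 of 78 cortex libraries.

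miR-384 was at 0 in 64 of 77 liver libraries and never above 0.863 CPM there, which is 15 counts in all liver libraries together. In the brain it ranged over 1502 to 2763 CPM in hypothalamus (median 2037), 844.8 to 2271 in striatum (median 1428) and 638.7 to 1344 in cortex (median 915.9). Hypothalamus was the highest region and did not overlap with cortex (with TMM scaling it did), and striatum overlapped with both. Its level passed that of miR-30b in 0 of 77 liver, 24 of 72 hypothalamus, 4 of 46 striatum and 0 of 78 cortex libraries.

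**Figure D1:**
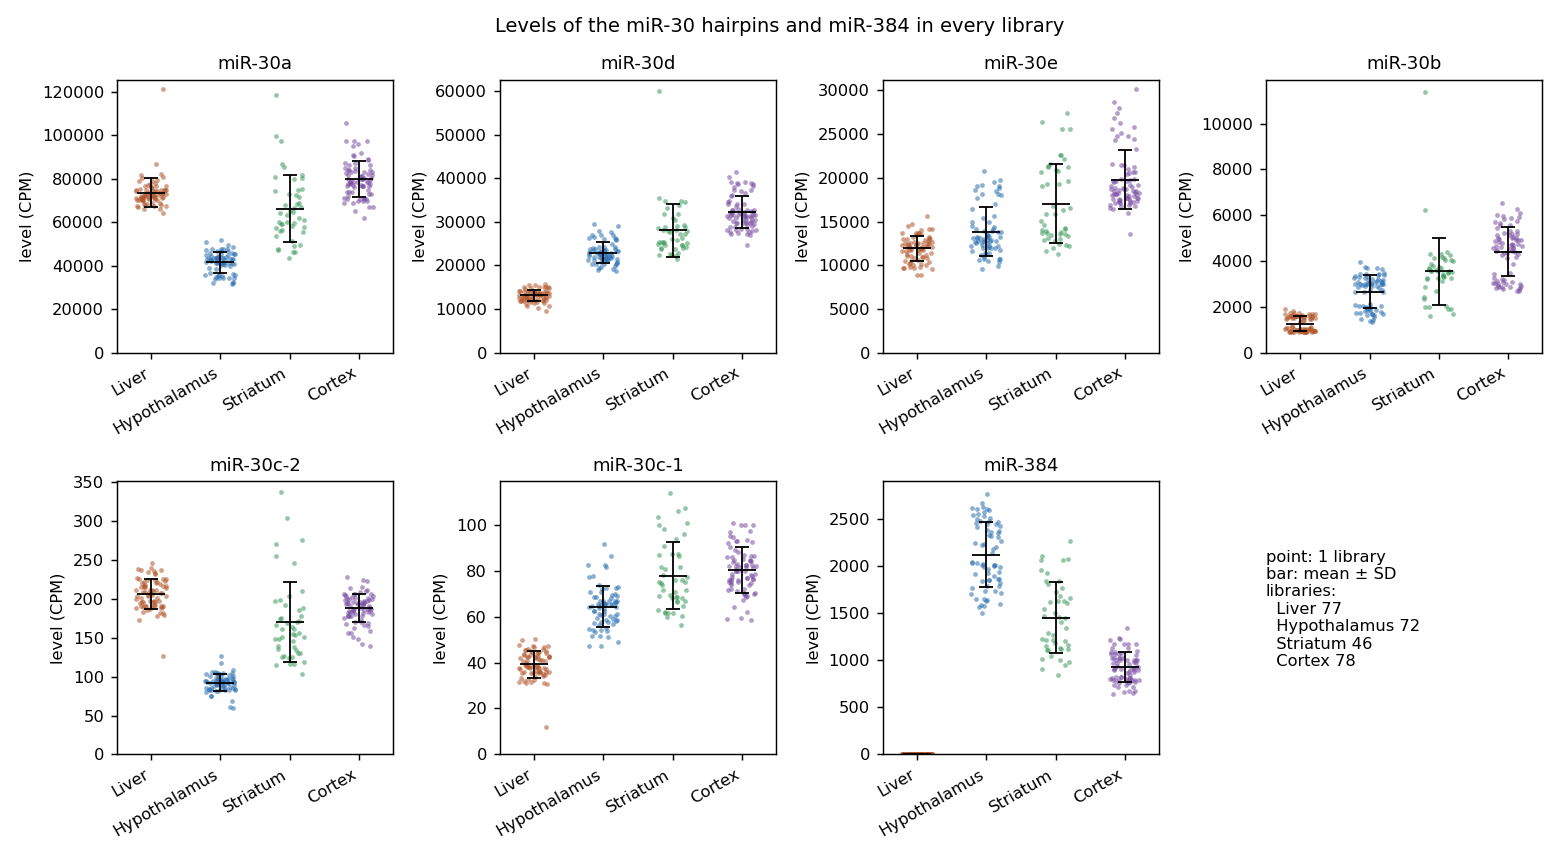
Level in CPM (linear axis from 0) of each member in every library of liver, hypothalamus, striatum and cortex, with a bar at the mean ± SD. miR-30a and miR-30c-2 are lowest in hypothalamus (medians 42530 and 93.1 CPM), miR-30d, miR-30e, miR-30b and miR-30c-1 have their lowest medians in liver on these library totals (their ratios to hypothalamus turn positive with TMM), and miR-384 is near 0 in liver with its highest median, 2037 CPM, in hypothalamus.

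On library totals the CPM ranges of 4 of the 7 members did not overlap between liver and hypothalamus, where this held for 66.4% of all hairpins tested. It held for 3 members between liver and striatum (46.1% of all hairpins), 4 between liver and cortex (64.3%), 0 between hypothalamus and striatum (0.483%), 3 between hypothalamus and cortex (12.6%) and 0 between striatum and cortex (0%). With TMM scaling it held for 5 members between liver and hypothalamus (255 of 414 hairpins), 3 between liver and striatum (196), 3 between liver and cortex (246), 0 between hypothalamus and striatum (2), 2 between hypothalamus and cortex (46) and 0 between striatum and cortex (0). The members were then miR-30a, miR-30c-2, miR-30d and miR-30e, higher in liver than in hypothalamus, miR-30a and miR-30c-2, higher in liver than in striatum and cortex and lower in hypothalamus than in cortex, and miR-384, lower in liver than in each region.

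Over the 31 tissue-by-ZT means, miR-30a and miR-30c-2, neighbours on chromosome 1, had Pearson's r of 0.95 with each other, and of -0.22 to 0.37 with the other miR-30 hairpins. miR-30b, miR-30c-1, miR-30d and miR-30e had r of 0.84 to 0.98 among themselves, whether or not they were neighbours. miR-30c-1 was closer to miR-30d (0.97) and miR-30b (0.96), on chromosome 15, than to its neighbour miR-30e (0.84). These means share the tissues, the libraries and the scaling, so r is a description only. Inside a tissue the pattern was another one. Between miR-30a and miR-30c-2, r of single-library deviations from group means was -0.48 in liver, -0.13 in hypothalamus, 0.50 in striatum and -0.26 in cortex. Between miR-30d and miR-30e, which are on different chromosomes, it was 0.70, 0.81, 0.70 and 0.83. Liver ZT9 replicate 4 had the highest miR-30a and the lowest miR-30c-2 of the 77 liver libraries, and r without it was not computed. Deviations here and below also hold differences between library runs. In runs 5 and 6 of each brain region, miR-30d and miR-30e were both higher than in the other runs.

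Among 210 other hairpins, the profile over the 31 means most like that of miR-30a was miR-15a (r = 0.95), which was also closest to miR-30c-2 (0.97). let-7d and miR-674 were closest to miR-30b (both 0.98), miR-674 and miR-128-1 to miR-30c-1 (both 0.98) and to miR-30d (both 0.99), and miR-221 to miR-30e (0.90). miR-433 (0.9993) and miR-598 (0.9991) were closest to miR-384; miR-433 averaged 0.246 CPM in liver, 1420 in hypothalamus, 1105 in striatum and 763 in cortex. Over the deviations of single libraries the nearest hairpins were others: miR-101a for miR-30a (0.63), miR-193a (0.85) and miR-150 (0.85) for miR-30b, miR-671 for miR-30c-1 (0.52), let-7i for miR-30c-2 (0.73), miR-99a for miR-30d (0.54), miR-369 for miR-30e (0.61) and miR-146a for miR-384 (0.60).

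The tissue comparison used edgeR's quasi-likelihood test on every library together, with TMM scaling, ZT as a factor and Benjamini-Hochberg adjustment over 414 hairpins. A call needed an adjusted p under 0.05 and an absolute log2 ratio of at least 1. Ratios of liver to brain depended on the scaling. The median hairpin's log2 ratio was -1.27 for liver over hypothalamus, -1.40 for liver over striatum and -1.31 for liver over cortex under TMM; it was -3.25, -3.35 and -3.23 with library totals. Each liver ratio is therefore given beside that median, and in bulk tissue fewer cells of a type cannot be told apart from less of the RNA in each cell.

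In liver over hypothalamus, 6 of the 7 members were called (5 higher, 1 lower), where 81.6% of all hairpins tested were called (29.2% higher, 52.4% lower). The log2 ratios were 2.78 for miR-30a, 3.13 for miR-30c-2, 1.75 for miR-30e, 1.26 for miR-30c-1, 1.16 for miR-30d and 0.89 for miR-30b, which was below the minimum ratio. Without that minimum all 7 had an adjusted p under 0.05, as did 96.1% of all hairpins. With library totals miR-30a stood at 0.82 and miR-30c-2 at 1.16, while miR-30e (-0.21), miR-30c-1 (-0.71), miR-30d (-0.81) and miR-30b (-1.07) turned negative. With DESeq2 size factors miR-30c-1 (0.82) and miR-30d (0.72) were below the minimum ratio. The calls over all hairpins split into 121 higher and 217 lower under TMM, and into 51 higher and 293 lower with totals.

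In liver over striatum, 4 members were called (3 higher, 1 lower; 81.9% of all hairpins were called, 28.7% higher and 53.1% lower). Here miR-30c-2 had a log2 ratio of 2.20, miR-30a of 2.05 and miR-30e of 1.39, and miR-30c-1 (0.93), miR-30d (0.82) and miR-30b (0.40) were below the minimum ratio. All 7 members, and 97.8% of all hairpins, had an adjusted p under 0.05. With totals, miR-30a stayed at 0.15 and miR-30c-2 at 0.30, and miR-30e (-0.52), miR-30c-1 (-0.98), miR-30d (-1.10) and miR-30b (-1.48) were negative. Calls split into 119 higher and 220 lower under TMM, against 56 and 292 with totals.

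In liver over cortex, 4 members were called (3 higher, 1 lower; 80.7% of all hairpins were called, 27.3% higher and 53.4% lower), namely miR-30c-2 at 2.05, miR-30a at 1.80 and miR-30e at 1.19 higher, and miR-384 lower. Between these tissues miR-30c-1 stood at 0.89, miR-30d at 0.62 and miR-30b at 0.11 (adjusted p = 0.09795, edgeR). The other 6 members, and 97.8% of all hairpins, had an adjusted p under 0.05. With totals all miR-30 hairpins but miR-30c-2 (0.13) were negative, from -0.11 for miR-30a to -1.80 for miR-30b, and with DESeq2 size factors miR-30b was at -0.06. Calls split into 113 higher and 221 lower under TMM, and 49 and 300 with totals.

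Each of the 6 miR-30 hairpins was 1.41 to 4.41 log2 units above the median hairpin in the 3 liver comparisons, and miR-30a was 3.11 above it in liver over cortex. A change of scaling shifts all hairpins alike, so this distance is nearly fixed under TMM, DESeq2 size factors and library totals and is no support for a direction. Adding library run as a term, which links liver to brain through 1 library alone, ended the call of miR-30d against hypothalamus (0.78) and of miR-30e against striatum (0.99) and cortex (0.71). The same term moved miR-30b to 1.56, 1.19 and 0.79 against hypothalamus, striatum and cortex. Against hypothalamus and striatum miR-30b thereby passed the minimum ratio.

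**Figure D2:**
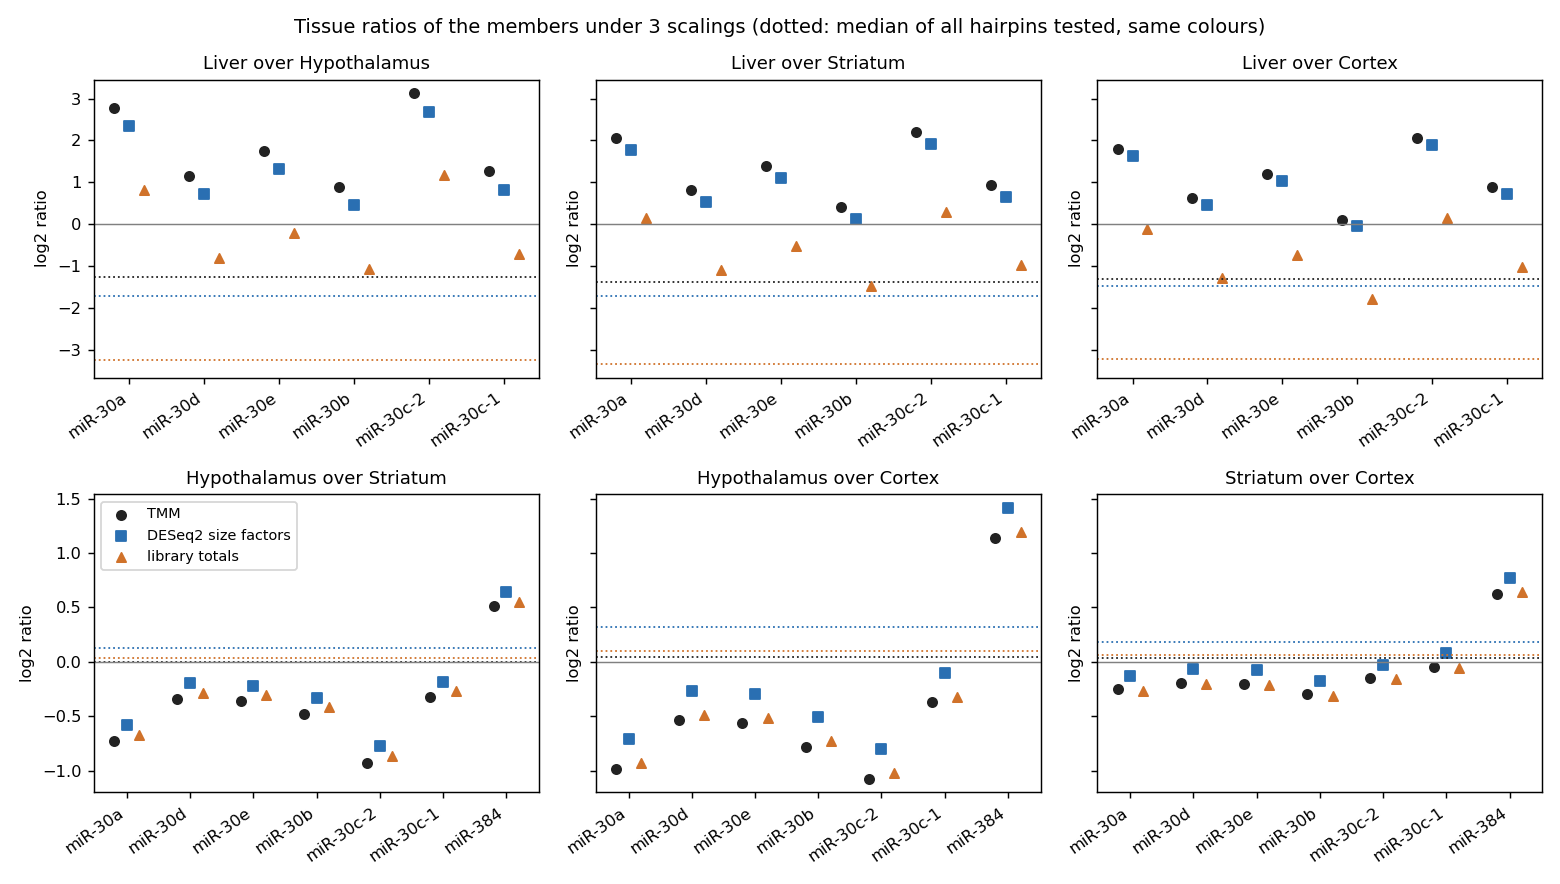
Log2 ratio of each member between tissues under TMM, DESeq2 size factors and library totals, with dotted lines at the median of all 414 hairpins under the same scaling (miR-384 is left out of the liver panels). The miR-30 hairpins lie above the dotted lines in the 3 liver panels, and their side of 0 depends on the scaling there, as for miR-30d in liver over hypothalamus (1.16 with TMM, -0.81 with totals).

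Within the brain the scalings moved the ratios less. In hypothalamus over cortex, 2 members were called (28.3% of all hairpins, 17.1% higher and 11.1% lower): miR-30c-2 was lower (log2 ratio -1.08) and miR-384 higher (1.14). Between these regions miR-30a stood at -0.98 and miR-30b at -0.78, miR-30e at -0.57, miR-30d at -0.54 and miR-30c-1 at -0.37. All 7 had an adjusted p under 0.05, as did 87% of all hairpins tested. miR-30a lay at the minimum ratio, and passed it in 4 alternatives that kept that minimum (-1.01 with no filter on low counts, -1.02 without libraries that stood apart, -1.01 with the miR-30c copies added and -1.01 with run as a term). With DESeq2 size factors miR-30a was at -0.71, miR-30c-2 at -0.80, and 1 member, miR-384, was called; the split of all calls was 71 higher and 46 lower with TMM, and 100 and 29 with DESeq2 size factors.

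In hypothalamus over striatum, 0 members were called (13.5% of all hairpins), although 7 had an unadjusted p under 0.05; DESeq2 called 0. The log2 ratios were -0.93 for miR-30c-2, -0.73 for miR-30a, -0.48 for miR-30b, -0.36 for miR-30e, -0.34 for miR-30d, -0.32 for miR-30c-1 and 0.51 for miR-384. Without a minimum ratio all 7 had an adjusted p under 0.05 by edgeR, against 75.6% of all hairpins. Calls split into 35 higher and 21 lower with TMM, and 39 and 15 with DESeq2 size factors.

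In striatum over cortex, 0 members were called as well (14.5% of all hairpins), 6 had an unadjusted p under 0.05, and DESeq2 called 0. miR-384 stood at 0.63 and the miR-30 hairpins between -0.30 (miR-30b) and -0.05 (miR-30c-1, adjusted p = 0.3247 with edgeR, and 0.08 with DESeq2 size factors). Without a minimum ratio 6 members had an adjusted p under 0.05, beside 76.6% of all hairpins. The split of calls was 32 higher and 28 lower with TMM, and 49 and 21 with DESeq2 size factors.

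The brain regions share library runs, so the differences could be read inside a run. Hypothalamus minus cortex was negative for each miR-30 hairpin in 9 of 9 runs and positive for miR-384 in 9 of 9, by 1.09 to 1.23 log2 units. Hypothalamus minus striatum was negative in 8 of 8 runs for the miR-30 hairpins other than miR-30c-1 (7 of 8), and positive for miR-384 in 8 of 8, by 0.26 to 0.72. Striatum minus cortex was positive for miR-384 in 8 of 8 runs (median 0.65) and negative for miR-30a, miR-30b, miR-30d and miR-30e in 8 of 8.

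Ratios between members inside a library do not depend on the scaling. They were compared between tissues of the same animal code with a two-sided sign-flip permutation test (100000 resamples, whose smallest p is 1e-05), in a family of 33 tests adjusted by Benjamini and Hochberg. This test was added after the dependence on scaling was seen.

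Relative to miR-30a, miR-30d was low in liver and high in hypothalamus. It amounted to 17.91% ± 1.74 of miR-30a in liver, 55.52% ± 5.74 in hypothalamus, 42.95% ± 5.39 in striatum and 40.48% ± 3.41 in cortex (SD). The liver libraries did not overlap with those of any brain region. The mean difference in log2 ratio was -1.62 for liver against hypothalamus (71 of 71 animals), with -1.29 against striatum (44 of 44) and -1.18 against cortex (77 of 77), each with an adjusted permutation p of 1.737e-05, the smallest possible here. Hypothalamus was above striatum by 0.36 (42 of 43 animals) and above cortex by 0.45 (72 of 72), at the same adjusted p. Striatum minus cortex was 0.07, in 26 of 45 animals (adjusted permutation p = 0.06905).

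miR-30e followed miR-30d in this. It was 16.25% ± 1.78 of miR-30a in liver, 33.24% ± 5.23 in hypothalamus, 26.14% ± 5.93 in striatum and 24.91% ± 3.55 in cortex. The difference in log2 ratio was -1.02 for liver minus hypothalamus (71 of 71 animals), -0.68 for liver minus striatum (43 of 44) and -0.61 for liver minus cortex (77 of 77), each at the smallest adjusted p. Only the liver and hypothalamus libraries did not overlap. Striatum minus cortex was 0.03 (23 of 45 animals, adjusted permutation p = 0.6368).

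**Figure D3:**
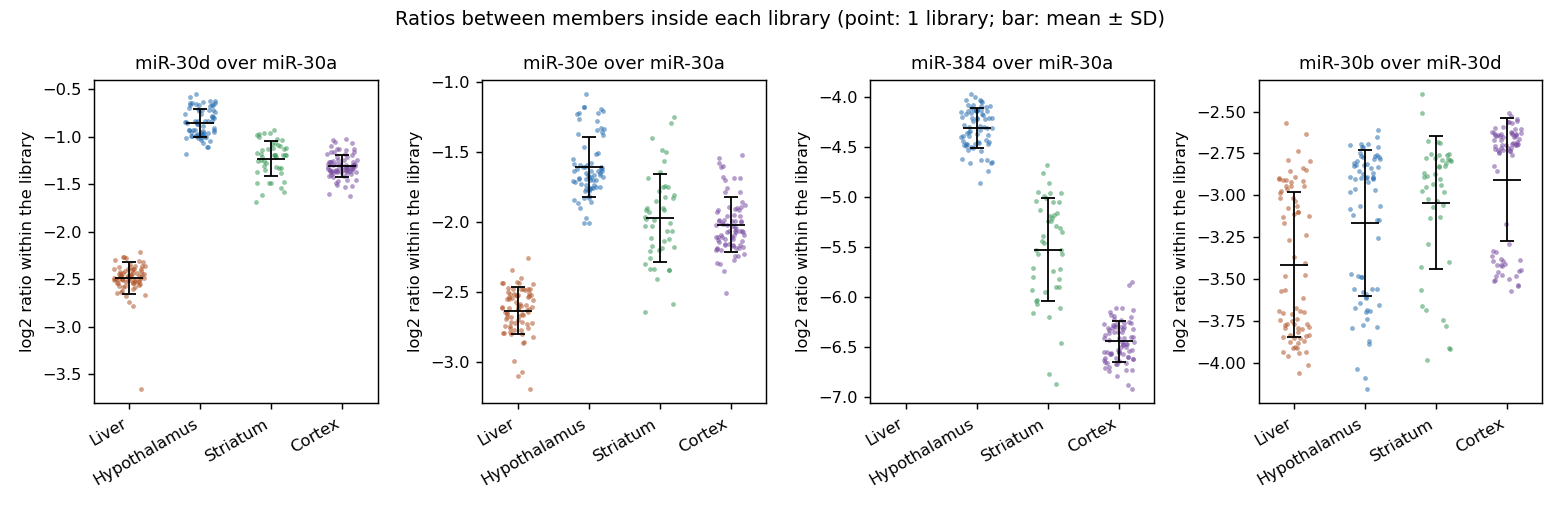
Log2 ratio of miR-30d to miR-30a, miR-30e to miR-30a, miR-384 to miR-30a and miR-30b to miR-30d in every library, with bars at the mean ± SD (miR-384 is not drawn for liver). The liver libraries lie below all brain libraries for miR-30d over miR-30a (liver -3.65 to -2.21, against -1.18 to -0.56 in hypothalamus), and miR-384 over miR-30a is highest in hypothalamus.

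Genomic neighbours also differed in their ratio between tissues. miR-30b over miR-30d was lower in liver than in hypothalamus by a mean log2 difference of -0.24 (50 of 71 animals, adjusted permutation p = 0.002281), than in striatum by -0.36 (32 of 44, 0.00018) and than in cortex by -0.51 (62 of 77, 1.737e-05), with overlapping libraries throughout. This direction is not separate from library run, with which miR-30b moved: with run as a term the ratios of liver to hypothalamus were 1.56 for miR-30b and 0.78 for miR-30d. In run 10, where they meet, miR-30b averaged 1568 CPM and miR-30d 11873 in 25 liver libraries, against 1723 and 21975 CPM in the 1 hypothalamus library, so that miR-30b relative to miR-30d was higher in liver there. miR-30c-1 over miR-30e differed by -0.49 for liver minus hypothalamus (65 of 71 animals) and by -0.02 for hypothalamus minus striatum (22 of 43 animals, adjusted permutation p = 0.7973). miR-30c-2 over miR-30a was the ratio that moved least in liver minus striatum, with 0.11 (26 of 44 animals, adjusted permutation p = 0.1499); it stood at 0.36 for liver minus hypothalamus (65 of 71) and 0.25 for liver minus cortex (62 of 77), both at 1.737e-05.

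Set against miR-30a, miR-384 was highest in hypothalamus and lowest in cortex among the brain regions. It was 5.12% ± 0.690 of miR-30a in hypothalamus, 2.30% ± 0.751 in striatum and 1.16% ± 0.172 in cortex. Hypothalamus minus cortex was 2.14 log2 units in 72 of 72 animals, without overlap of the libraries; hypothalamus minus striatum was 1.24 in 43 of 43, and striatum minus cortex 0.86 in 42 of 45. The adjusted permutation p was 1.737e-05 for each, the smallest possible.

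In liver, miR-384 was close to the detection limit. The 15 counts among 229847904 give 0.0653 CPM (95% exact Poisson interval 0.0365 to 0.108, counting error only). Pooled over libraries, hypothalamus was 31598 times as high as liver (19158 to 56457), striatum 21153 times (12825 to 37794) and cortex 13772 times (8350 to 24607), on library totals. These intervals hold counting error alone, while the ratio also depended on the scaling. Under TMM the log2 ratio of miR-384 was -13.02 in liver over hypothalamus, -12.51 over striatum and -11.89 over cortex. With DESeq2 size factors it was -13.47, -12.82 and -12.05, and with library totals -14.99, -14.43 and -13.79. The liver counts were uneven over library runs: 14 were in 12 of the 25 liver libraries of run 10, the run that liver shares with a hypothalamus library, 1 was in run 11, and 0 were in the 38 libraries of runs 12 to 14. Whether the run bears on these counts was not tested.

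Other microRNAs linked to synaptic plasticity or to liver fibrosis and metabolism were set beside the members, in lists chosen with earlier results known. Of 23 plasticity-linked hairpins 20 were tested; in liver over cortex 0 were called higher, 16 lower and 4 not called (27.3% higher and 53.4% lower over all hairpins), with a median log2 ratio of -6.58 (-6.30 with the 3 that had no liver count at their bound of 3 counts over the liver libraries), against -1.31 for all hairpins. miR-9-3 and miR-9-1, copies of a brain microRNA, were at 0 in every liver library and averaged 17.8 ± 5.40 and 8.88 ± 3.04 CPM in cortex. In hypothalamus over cortex 3 of the 20 were higher and 7 lower, with a median of -0.58, against 17.1% higher, 11.1% lower and a median of 0.04 over all hairpins. Of 19 hairpins linked to liver fibrosis and metabolism 16 were tested; in liver over cortex 9 were higher and 2 lower, with a median of 2.68, where 27.3% of all hairpins were higher and 53.4% lower. In hypothalamus over cortex 1 was higher and 2 lower, with a median of -0.39, which as a share is near or below the 17.1% and 11.1% of all hairpins. miR-122, a hepatocyte microRNA, averaged 21398 ± 1647 CPM in liver and 1.51 ± 0.690 in cortex, and miR-192 averaged 291461 ± 22974 CPM in liver and 2126 ± 252 in cortex. The 2 that were lower in liver were miR-34a (20.8 ± 7.35 CPM in liver, 278.5 ± 60.6 in cortex) and miR-29b-2 (3.06 ± 1.17 in liver, 37.9 ± 7.39 in cortex).

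For time of day, a cosine of period 24 h was fitted in each tissue with edgeR's quasi-likelihood test. The size of a rhythm is given as the log2 ratio of the fitted peak to the fitted trough. No member passed the test in any tissue: 0 of 6 tested in liver (4.98% of all hairpins were called), 0 of 7 in hypothalamus (0.263%), 0 of 7 in striatum (0.528%) and 0 of 7 in cortex (0.254%). DESeq2 called 0 in each as well. At an unadjusted p under 0.05 stood 0, 0, 1 and 0 members in that tissue order. miR-384 was too low in liver to be tested.

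The fitted sizes, which cannot be negative and so carry noise upwards, were 0.02 to 0.21 in liver, 0.06 to 0.15 in hypothalamus, 0.14 to 0.63 in striatum and 0.04 to 0.15 in cortex. The highest upper 95% limit of a size was 0.40 in liver, 0.36 in hypothalamus, 1.09 in striatum and 0.38 in cortex. A rhythm smaller than these limits may have gone undetected at this depth and sampling.

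miR-30b had the highest size in liver, 0.21 ± 0.10 (SE; peak at ZT4.09, adjusted p = 0.3827). Its liver level was 1383 ± 344 CPM at ZT0 (n = 12) and 944.9 ± 51.8 at ZT15 (SD, n = 6), with overlapping libraries. All 6 liver libraries of ZT15 were in runs 12 to 14, where miR-30b was low, and with run as a term its size was 0.08 ± 0.05.

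In striatum miR-30b had a size of 0.63 ± 0.23 (peak at ZT20.8, unadjusted p = 0.02201, adjusted p = 0.9976). Striatum ZT21 replicate 3 held 11390 CPM, and the other libraries of ZT21 held 1978 to 4292. Without the libraries that stood apart, that one included, the size was 0.15 ± 0.18. miR-30c-2 in striatum had 169.7 to 337.5 CPM at ZT3 (mean 225.9, n = 6) and 125.6 to 151 at ZT18 (mean 138.3, n = 2), which do not overlap; its fitted size was 0.31 ± 0.23 (adjusted p = 0.9976, edgeR).

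**Figure D4:**
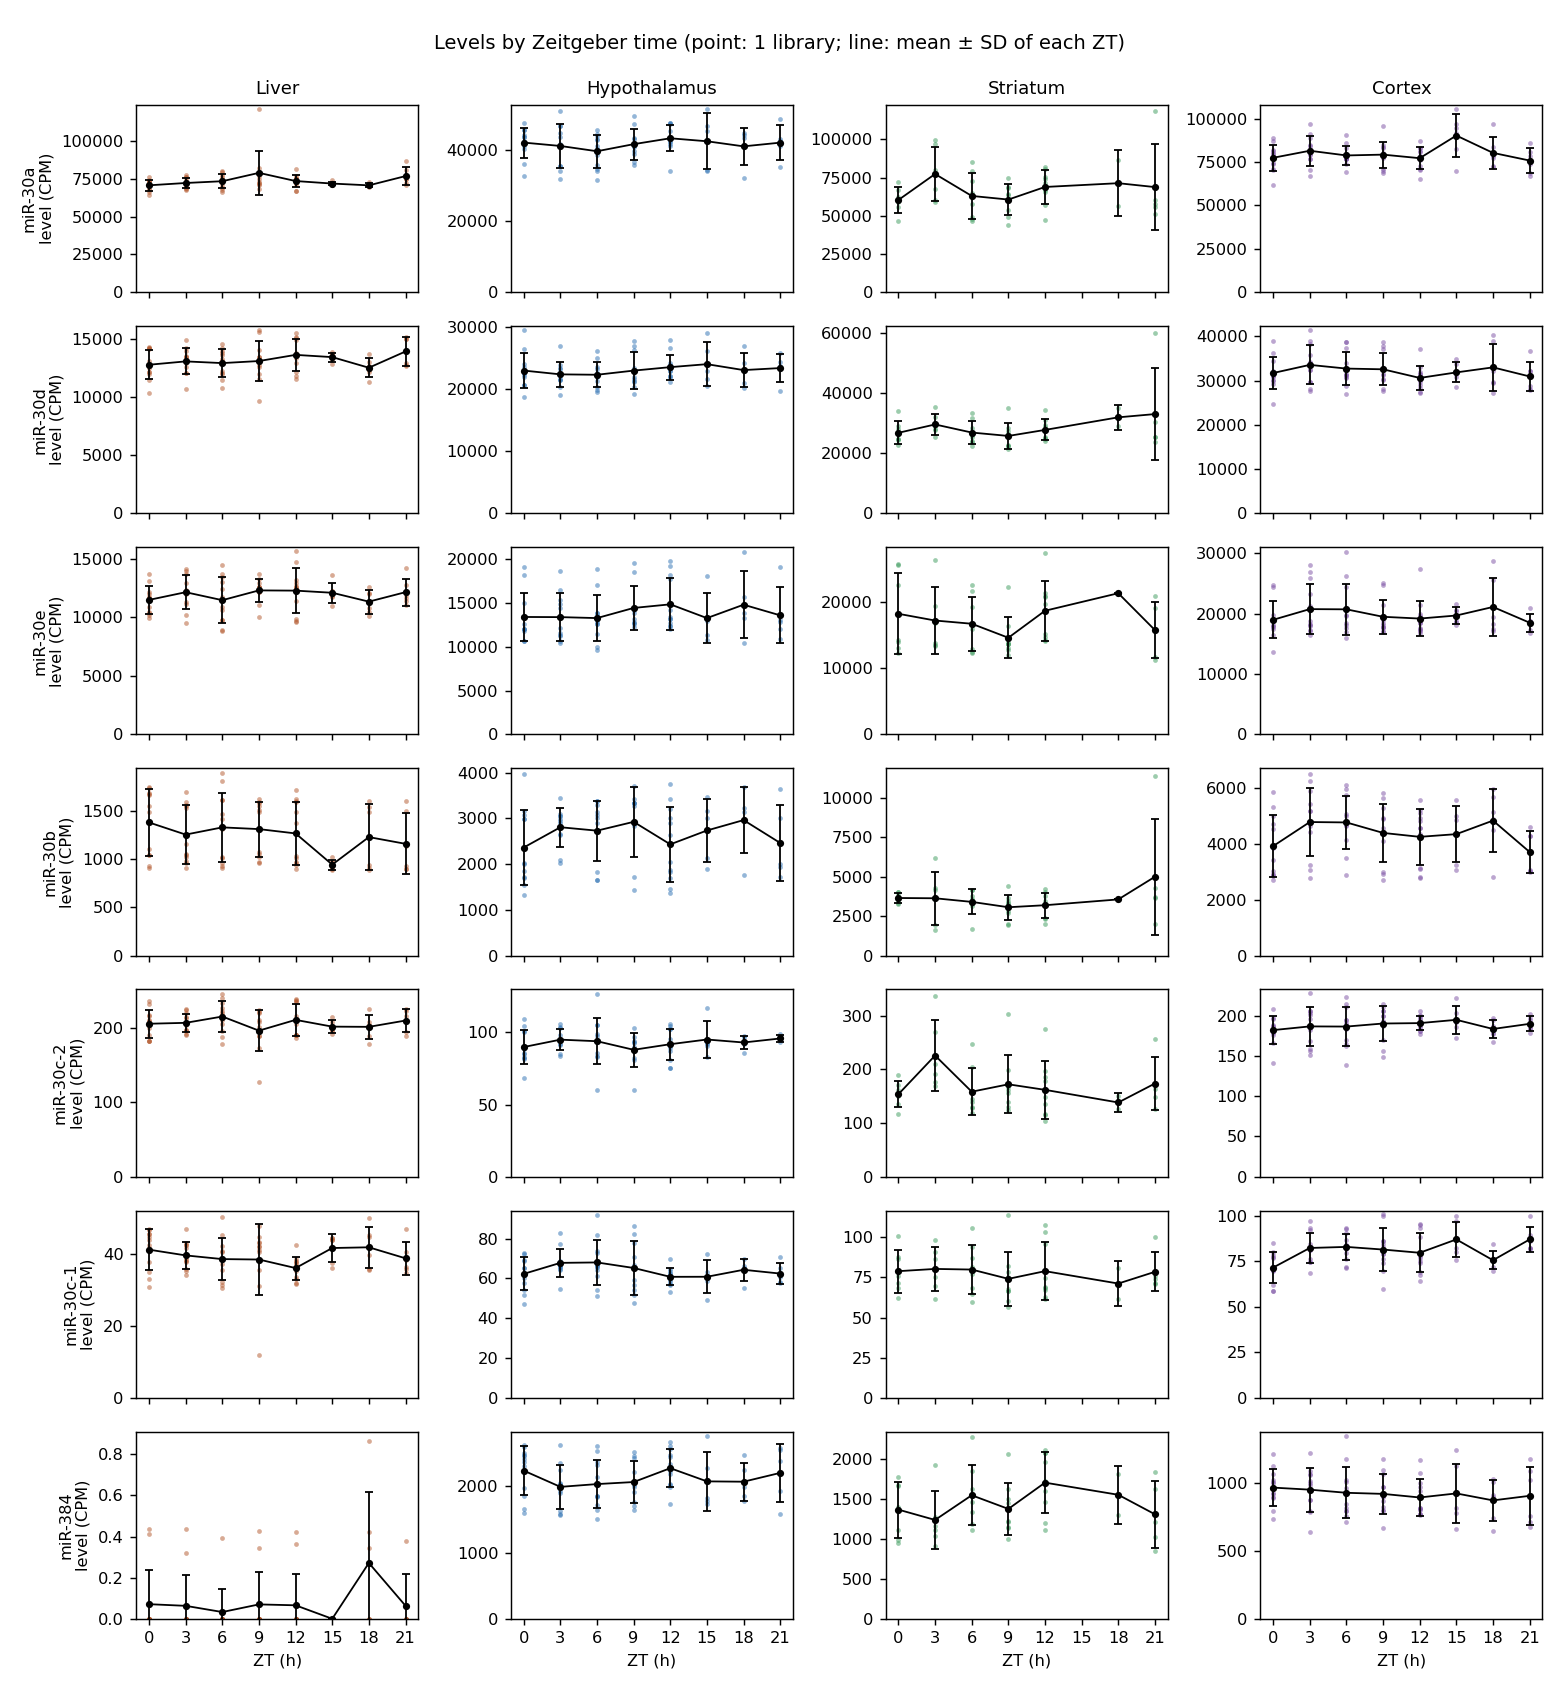
Level in CPM (linear axes from 0) of each member by ZT in hours in liver, hypothalamus, striatum and cortex, with points for libraries and a line through the mean ± SD of each ZT (SD bars of miR-384 in liver stop at 0). The libraries of the highest and lowest ZT overlap except for miR-30c-2 in striatum, at 225.9 ± 65.5 CPM at ZT3 and 138.3 ± 18.0 at ZT18; the striatum miR-30b mean is highest at ZT21, where 1 library holds 11390 CPM.

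The fitted rhythms were also compared between tissues by the interaction of the cosine terms with tissue, in edgeR. In each of the 6 pairs 0 members were called: the share of all hairpins called was 0.804% for liver and hypothalamus, 1.85% for liver and striatum, 1.34% for liver and cortex, 0.811% for hypothalamus and striatum, 0% for hypothalamus and cortex and 0.519% for striatum and cortex. DESeq2 called 0 members in each, and 0, 3, 0, 1, 0 and 1 members had an unadjusted p under 0.05. The lowest adjusted p was 0.1285, for miR-30b in liver and striatum, with a difference of 0.72 ± 0.23 log2 units (SE). Without Striatum ZT21 replicate 3 it was 0.34 ± 0.20 (adjusted p = 0.8022, edgeR). The pairs with liver include miR-384, which passed the filter through its brain libraries alone. Its differences there were 1.81 ± 0.91 with hypothalamus, 1.94 ± 0.99 with striatum and 2.02 ± 0.97 with cortex (SE). They rest on 15 liver counts and are no test of a rhythm in liver.

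ZT0 to ZT12 was sampled in a first passage, up to 12 h, and in a second, from 24 h on, and the passages were compared with ZT as a factor. miR-30d in cortex was the 1 call among the members. Its level there was 26966 to 38671 CPM (median 30665) in the second passage and 24772 to 41479 (median 32776) in the first, and the passages overlapped over most of this range. The means were 30929 ± 3106 and 33548 ± 3818 CPM in that order (SD, n = 30 each), and the log2 ratio was -0.15 ± 0.05 (SE, adjusted p = 0.02291, edgeR), where 30.7% of all hairpins in cortex were called. With library run as a term it was -0.05 ± 0.02 (adjusted p = 0.09072). Of the cortex libraries, 4 of 30 in the second passage and 9 of 30 in the first were in runs 5 and 6, where miR-30d was high.

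No member was called between passages in liver, hypothalamus or striatum, where 0% of all hairpins were called in each by edgeR. The lowest adjusted p of a member was 0.9135 in liver, 0.9929 in hypothalamus and 0.3814 in striatum; 0 members had an unadjusted p under 0.05 in these tissues, and DESeq2 called 0.

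Library run went with large differences in some members, above all miR-30b. Runs were split into later and earlier ones after these values were seen, so the comparison is a description without a test. In hypothalamus miR-30b was 1778 ± 228 CPM in runs 7 to 10 (1318 to 2131, n = 26) and 3149 ± 304 in the earlier runs (2634 to 3959, n = 46). Striatum had 1986 ± 262 CPM in the later runs (1613 to 2413, n = 9) and 3928 ± 1391 in the earlier ones (2695 to 11390, n = 37). Cortex had 2997 ± 207 CPM in the later runs (2695 to 3480, n = 24) and 5021 ± 606 in the earlier ones (3849 to 6521, n = 54). The later libraries did not overlap with the earlier ones in any of the 3 regions, and the ratio of means was 0.565, 0.506 and 0.597.

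In liver miR-30b averaged 977.7 ± 65.7 CPM in runs 12 to 14 (n = 38) and 1544 ± 195 in runs 10 and 11 (n = 39), a ratio of 0.633, with overlap. Its neighbour miR-30d did not move with it: its ratio of later to earlier means was 1.06 in liver, 0.998 in hypothalamus, 0.929 in striatum and 1.01 in cortex. Lymphocyte and myeloid microRNAs (3 of 3 detected) had a ratio of median summed levels of 0.814 in liver, 0.580 in hypothalamus, 0.508 in striatum and 0.535 in cortex between the same runs. One of them is miR-150, which was also among the hairpins nearest to miR-30b across libraries. Other lists had other ratios between these runs. Red cell microRNAs had 0.837 in liver, 1.135 in hypothalamus, 1.129 in striatum and 0.776 in cortex. Hepatocyte microRNAs had 1.069, 1.245, 1.214 and 1.185 in that order. The part of any of these microRNAs in the miR-30b difference was not tested.

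miR-384 went the other way in the brain. Its mean was 2430 CPM in the later and 1949 in the earlier runs of hypothalamus, a ratio of 1.25, and the ratio was 1.39 in striatum and 1.27 in cortex, with overlapping libraries in each.

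miR-30e stood out in runs 5 and 6. In striatum it was 23022 ± 2333 CPM there (20788 to 27388, n = 13) and 14669 ± 2510 in the other runs (11285 to 20687, n = 33), without overlap. The ratio of means was 1.44 in hypothalamus, 1.57 in striatum and 1.40 in cortex, and for miR-30d it was 1.20, 1.21 and 1.25. miR-30c-2 was lower in runs 5 and 6, with ratios of 0.852, 0.855 and 0.830.

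The share of the variance in log2 level that lay between runs was 81.33% for miR-30b in liver, 88.63% in hypothalamus, 64.21% in striatum and 93.41% in cortex. The median over hairpins of at least 100 CPM was 23.32%, 51.89%, 36.08% and 44% in the same tissues. By this share miR-30b ranked 1 of 97 such hairpins in liver, 7 of 195 in hypothalamus, 20 of 190 in striatum and 4 in cortex. Between ZT groups the share for miR-30b was 12.52%, 9.96%, 9.52% and 10.93%.

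**Figure D5:**
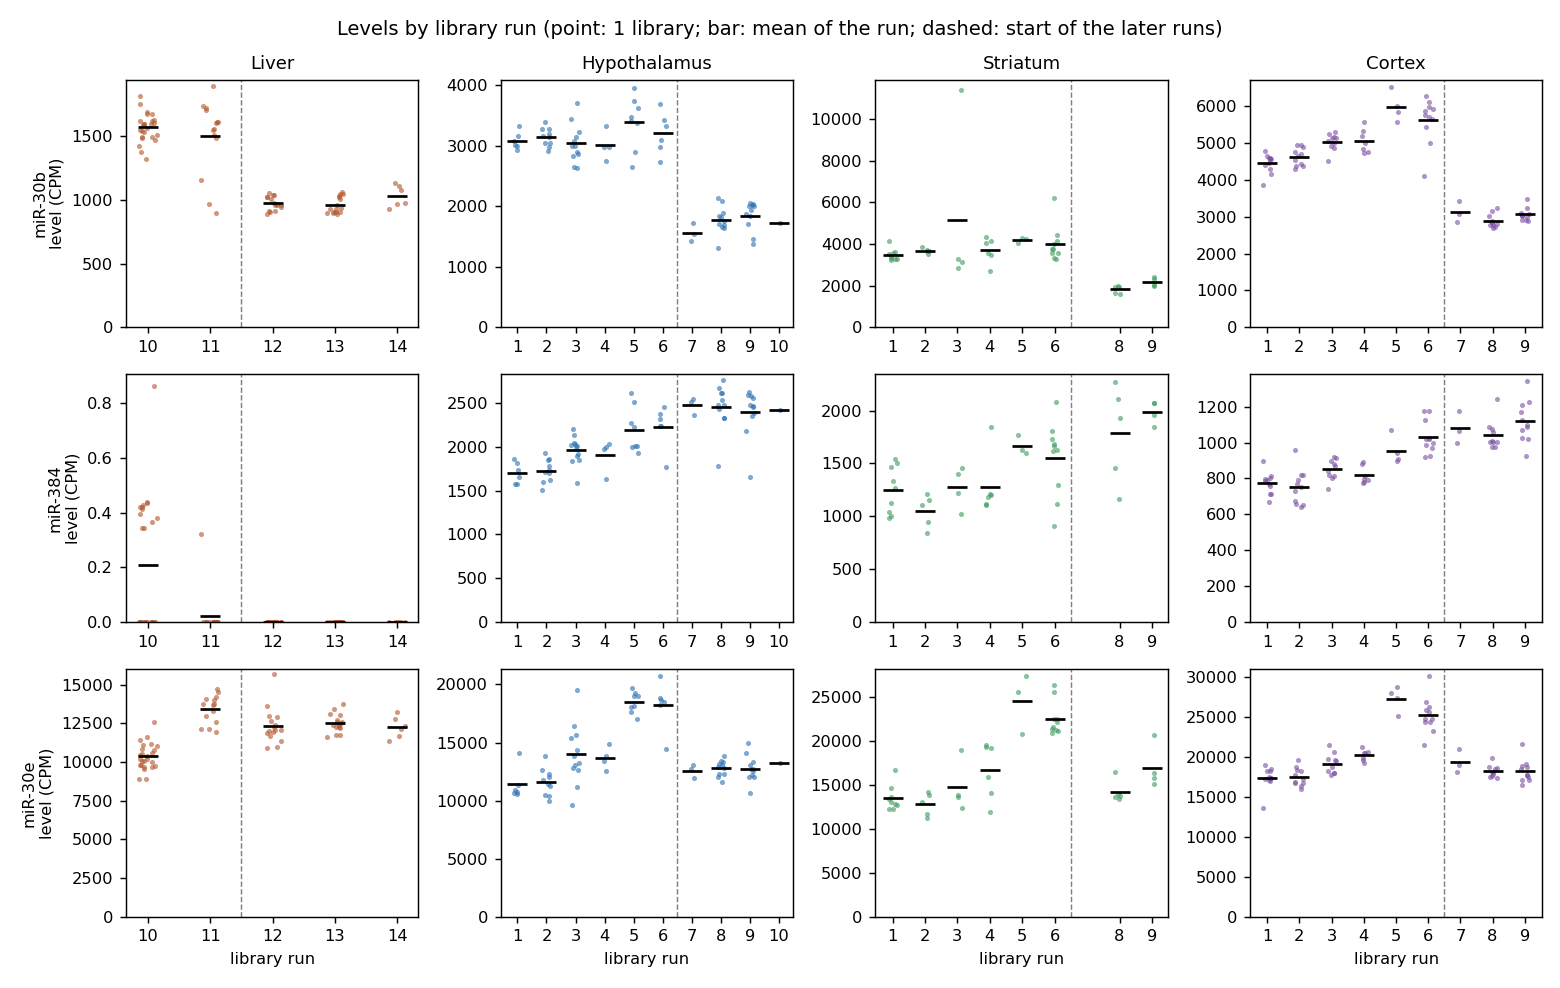
Level in CPM (linear axes from 0) of miR-30b, miR-384 and miR-30e by library run in liver, hypothalamus, striatum and cortex, with points for libraries, a bar at each run's mean and a dashed line before the later runs. miR-30b is lower in the later runs of each tissue (ratios of means 0.633, 0.565, 0.506 and 0.597), and miR-30e is highest in runs 5 and 6 of the brain regions.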

How the data were processed

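Small RNA was enriched from total RNA extracted with a Qiagen kit, and libraries followed the Illumina protocol, per the labels' protocols. The deposited tables hold whole-number read counts per hairpin, which the authors made with no normalization; every column was matched to 1 library by its label. Per the submitters' processing notes, the tools were STAR 2.7.3a and HTSeq 0.10.0 and the build GRCm38 (mm10). Trimming, the miRBase release and the treatment of multi-mapped reads are not given in the sources used here. A hairpin count adds both arms, and reads shared by copies may be split or lost. CPM was computed here from the deposited counts and library totals.

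Tests used edgeR 4.0.16 in R 4.3.3 (TMM scaling, filterByExpr, quasi-likelihood F test) with Benjamini-Hochberg adjustment over all hairpins tested and a threshold of 0.05; the procedures were tested on simulated counts. Permutations, ratios and figures used Python 3.11.15 with SciPy 1.17.1. Alternatives were DESeq2 1.42.0 (also its size factors in edgeR), library totals, no filter on low counts, no minimum ratio, the miR-30c copies added together, library run as a term, the animal code or replicate number as a block, a period of 12 h, leaving out libraries that stood apart (over 5 median absolute deviations from the median correlation with the tissue's profile) and leaving out single libraries. A library run joins library numbers that follow each other and carry the same L code, whose meaning the labels do not state. The members and lists were chosen with earlier results of these data known. Hairpins named beside the members were the 2 with the highest Pearson's r in each measure (the first alone unless both were equal to 2 decimals or, for miR-384, nearly so), and in lists the 2 with the largest change in each direction.

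Within a tissue each library had its own animal code, so the p-values measure the spread between libraries of different animals, so far as the codes stand for animals. The main edgeR tests hold no run term, so this spread also includes differences between library runs. Tissues of 1 animal are tied by these codes (42 of 79 codes have all 4 tissues). The code of Striatum ZT9 replicate 9 lacks 1 letter of a code of the same sampling time in the other tissues. It was counted as a code of its own, so that library entered no same-animal pair. The median correlation of same-animal deviations was -0.07 to 0.06 over the 6 pairs of tissues. Depth sets the lower limit: 3 counts equal 0.573 to 1.51 CPM in liver, 0.759 to 2.78 in hypothalamus, 0.746 to 113.9 in striatum and 0.602 to 2.58 in cortex, for counting error only, since no molecular identifiers are described. No pair of libraries had identical counts. Mature sequences, positions and host genes came from the RefSeq annotation and gene tables of GRCm38.p6.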

Additional observations from a re-analysis of the deposited data

Results flagged for a closer look

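Within a group of 4 to 10 libraries of 1 tissue and ZT, 14 of 109 tests found 1 library far from the others, where chance flags about 1 in 20 groups. Of these, 4 were Striatum ZT21 replicate 3 (n = 5): miR-30a at 118521 CPM (others 51300 to 60219), miR-30b at 11390 (1978 to 4292), miR-30d at 60039 (23671 to 30442) and miR-30c-1 at 100 (70.68 to 76.08). This library had 3218577 counts, and its summed oligodendrocyte microRNAs, 5141 CPM, were the lowest of 46 striatum libraries. Its red cell microRNAs, 1292 CPM against a striatum median of 490.8, ranked 2 of 46 from the top. Its endothelium and mural microRNAs, 35360 CPM against a median of 26294, ranked 6 of 46. The part of these cell types was not tested. Striatum ZT9 replicate 6, with 26341 counts in all, was highest in its group (n = 9) for miR-30c-1 at 113.9 CPM (others 56.56 to 81.9), which is 3 counts, and for miR-30c-2 at 303.7 (others from 124.5). Striatum ZT9 replicate 7 was highest for miR-30d at 34845 CPM (21506 to 28228) and for miR-30e at 22202 (11921 to 16372).

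The others were single values. miR-30a reached 74290 CPM in Liver ZT15 replicate 4 (others 70657 to 71843, n = 6). miR-30b was at 1666 CPM in Striatum ZT6 replicate 8, the lowest of its group and its only library of the later runs (others 3118 to 4166, n = 8). miR-30c-2 was at 117 CPM in Hypothalamus ZT15 replicate 4 (83.18 to 92.62, n = 5) and at 60.39, the lowest, in Hypothalamus ZT9 replicate 7 (80.69 to 102.8, n = 10). miR-30e was at 19044 CPM in Hypothalamus ZT21 replicate 2 (10911 to 13076, n = 5), and miR-384 at 1926 CPM in Striatum ZT3 replicate 5 (909.9 to 1268, n = 6). Liver ZT9 replicate 4, in a group too large for this test, had the highest miR-30a of the 77 liver libraries (120949 CPM), the lowest miR-30d (9623), miR-30c-2 (126.9) and miR-30c-1 (11.81), and red cell microRNAs of 6920 CPM against a liver median of 999.7. The part of red cells in this was not tested.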

How the results depend on the processing

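Under the alternatives that leave out no single library, of the values of single members 1194 kept direction and side of the threshold, 40 gained a call, 15 lost one and 42 changed sign; of the counts of members called, 180 stayed within 1.5 times and 13 did not. With library totals 3 members were called in liver over hypothalamus, beside 344 of 414 hairpins. Ratios that changed sign against hypothalamus were miR-30b -1.07, miR-30c-1 -0.71, miR-30d -0.81 and miR-30e -0.21. Against striatum they were miR-30b -1.48, miR-30c-1 -0.98, miR-30d -1.10 and miR-30e -0.52. Against cortex they were miR-30a -0.11, miR-30b -1.80, miR-30c-1 -1.03, miR-30d -1.30 and miR-30e -0.73. Those of -1 or below passed the minimum ratio as lower in liver. A count of calls can thus stay alike while its members and their direction change. DESeq2 and its size factors each gave miR-30b -0.055 in liver over cortex, and 0.058 and 0.084 for miR-30c-1 in striatum over cortex; both called 1 member in hypothalamus over cortex. With no minimum ratio the calls were 7 in liver over striatum, 7 in hypothalamus over striatum, 7 in hypothalamus over cortex and 6 in striatum over cortex. The animal code as a block changed no call. Leaving out single libraries moved the calls in hypothalamus over cortex between 2 and 3 (miR-30a -1.01 without Hypothalamus ZT18 replicate 1) and in the rhythm difference of liver and striatum between 0 and 1 (miR-30b 0.82, adjusted p = 0.04852, without Striatum ZT21 replicate 5, and 0.34, adjusted p = 0.8022, without replicate 3), and no other count examined. For tissue ratios and rhythm differences, only libraries from groups of 2 to 5 were left out, at most 22 per comparison. These were hypothalamus and striatum libraries, so no liver or cortex library was left out there. The rhythm difference of liver and cortex was not examined in this way.

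In the second over the first passage in cortex, 2 members were called with DESeq2, beside 126 of 458 hairpins. With its size factors 2 were called (123 of 398 hairpins), and 2 without libraries that stood apart (126 of 401). With run as a term 0 members were called, beside 94 hairpins. Passage ratios near 0 that changed sign were, in liver, miR-30c-2 0.0092 and miR-30d 0.032 (totals), miR-30d 0.017 (run), and miR-30e -0.0031 (size factors), -0.0010 (no filter), -0.019 (without libraries that stood apart), -0.010 (copies added) and -0.0038 (DESeq2). In hypothalamus they were miR-30e -0.00040 (no filter) and -0.0064 (run), and miR-384 -0.018 (run). In striatum they were miR-30c-1 0.00020 (size factors), 0.017 (totals), 0.0014 (no filter), 0.050 (without libraries that stood apart), 0.044 (run) and 0.011 (DESeq2). In cortex they were miR-30c-1 0.033 (totals) and 0.0025 (no filter), miR-30c-2 0.019 (totals) and miR-30e 0.053 (run). The cause of these changes was not tested.

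Replicate numbers do not pair the samples: same-numbered samples of 2 tissues came from the same animal code in 1 to 11 of 46 to 77 pairs, and their median correlation was 0.05 to 0.26. In hypothalamus, with the replicate number as a block, 3 members were called for rhythm (miR-30a 0.29, miR-30d 0.22 and miR-384 0.37), beside 61 of 380 hairpins. In liver 2 were called (miR-30b 0.39 and miR-30d 0.21), beside 25 of 241. Within a group these numbers rise with library number, so 1 number falls in different runs in groups of different size. The block is therefore mixed with library run. With run as a term the size was 0.03 for each of the 3 in hypothalamus (adjusted p = 0.9947, edgeR). In liver it was then 0.08 for miR-30b and 0.05 for miR-30d (adjusted p = 0.5792 and 0.5995, edgeR). The passage block gave miR-30d 0.022 in liver, miR-30e -0.014 in striatum, and miR-30c-1 0.0063, miR-30e 0.022, miR-30d -0.08 (adjusted p = 0.1204) and miR-384 -0.13 (adjusted p = 0.03346) in cortex. Leaving out single libraries was not run for passages, where no group has 2 to 5 libraries. Depth limits miR-384 in liver and miR-30c-1, which rested on few counts in the shallowest library.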
